A study of Mus musculus with 4 samples.

Results

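The 9 genes studied here, Vpreb1, Vpreb3, Igll1, Rag1, Ebf1, Pax5, Cd79a, Cd79b and Ms4a1, act in B cell development and were followed through single-cell RNA-seq libraries of mouse bone. They were taken by symbol, and all 9 were found among the 32285 genes listed in each of 4 matrices. The study asked which cells of bone respond to excess glucocorticoid (GC). By the labels the mice were 20-week-old C57BL/6J males that received slow-release pellets of the synthetic glucocorticoid prednisolone at 6.25 mg/kg/d, or placebo, and tissue was taken at week 2. The labels give pellets for all mice, while the study's text gives daily injections for its fracture model, so the route for callus is not settled. Callus and trabecular bone each gave a control (placebo) and a GC library, 4 in all, 1 for each group, and the number of mice behind a library was not stated. Callus is the repair tissue of a fracture, and marrow plugs were flushed from the bone and both fractions were digested with collagenase and dispase. With 1 library in each group no test between GC and control was possible. Every interval given here covers counting error alone, not the variation between mice or, for levels, between cells.

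B cells arise in bone marrow from progenitors in which Ebf1 and then Pax5, both transcription factors, switch on the B cell program. Rag1, with Rag2, forms the recombinase that assembles antibody genes. Vpreb1 and Igll1 encode the surrogate light chain, which joins a new heavy chain to form the receptor of a dividing pre-B cell, and Vpreb3 encodes a relative of VpreB made in the same lineage. Cd79a and Cd79b encode the signaling chains of the B cell receptor, and Ms4a1 encodes the surface protein CD20 of later B cells.

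Vpreb1 (ENSMUSG00000059305) and Igll1 (ENSMUSG00000075370) lie on the same strand of mouse chromosome 16 (GRCm38), 4417 bases apart. Vpreb3 (ENSMUSG00000000903) lies on chromosome 10 and Rag1 (ENSMUSG00000061311) on chromosome 2. The promoters of these stage-restricted genes are shown because their levels set the early stages apart from the later ones below. Each sequence runs from 250 bases before to 50 after the RefSeq start (GRCm38.p6), and 7 of the 9 genes had such a window.

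Vpreb1, chr16:16869206-16869505, minus strand: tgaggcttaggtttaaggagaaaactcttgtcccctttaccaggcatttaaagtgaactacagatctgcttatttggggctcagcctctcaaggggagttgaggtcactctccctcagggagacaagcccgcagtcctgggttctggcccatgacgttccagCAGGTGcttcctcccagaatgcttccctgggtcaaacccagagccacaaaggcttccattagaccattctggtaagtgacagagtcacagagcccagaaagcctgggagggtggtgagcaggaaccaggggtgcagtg
Igll1, chr16:16863936-16864235, minus strand: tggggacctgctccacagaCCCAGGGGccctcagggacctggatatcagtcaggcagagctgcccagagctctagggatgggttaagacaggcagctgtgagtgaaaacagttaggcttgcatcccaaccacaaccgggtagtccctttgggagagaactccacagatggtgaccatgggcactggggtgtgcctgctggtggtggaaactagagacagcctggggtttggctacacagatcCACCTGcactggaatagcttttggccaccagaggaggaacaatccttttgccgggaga
Vpreb3, chr10:75948050-75948349, plus strand: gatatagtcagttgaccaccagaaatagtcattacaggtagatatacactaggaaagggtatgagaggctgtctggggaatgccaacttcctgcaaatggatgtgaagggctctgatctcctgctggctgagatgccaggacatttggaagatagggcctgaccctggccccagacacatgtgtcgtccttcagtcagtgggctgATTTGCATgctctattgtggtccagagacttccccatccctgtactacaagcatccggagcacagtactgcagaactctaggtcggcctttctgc
Rag1, chr2:101649483-101649782, minus strand: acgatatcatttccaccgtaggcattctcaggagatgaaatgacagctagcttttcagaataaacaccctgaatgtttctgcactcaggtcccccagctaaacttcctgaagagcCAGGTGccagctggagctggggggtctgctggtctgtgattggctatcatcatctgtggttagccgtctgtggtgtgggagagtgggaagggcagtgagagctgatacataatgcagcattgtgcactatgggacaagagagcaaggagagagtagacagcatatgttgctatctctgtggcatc

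Capitals mark the letters of 4 motifs searched on both strands. The E-box CAGGTG, a target of E2A proteins, stood at -88 in Vpreb1, at -8 in Igll1 (read on the other strand) and at -135 in Rag1. It also stood at -154 in Cd79a, whose window is not printed, and it occurs in 20.2% of 32851 mouse promoter windows. The core CCCNNGGG of the EBF1 motif stood at -231 in Igll1 and occurs in 13.7% of windows. The longer palindromic EBF1 motif, found in 0.904% of windows, was not among the letters of the members' windows. The octamer ATTTGCAT stood at -45 in Vpreb3 and occurs in 1.74% of windows. Positions are counted from the start site to the first base of the match.

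Droplets of callus gave 6706 control and 6890 GC cells and those of trabecular bone 3806 and 4602, with medians of 3258 to 6280 UMIs (unique molecular identifiers, each counting 1 captured RNA). Pairs of libraries shared 6 to 11 cell barcodes. Cells were clustered without the 9 members, and clusters were named from other markers. All 14 B lineage markers were detected in the B lineage cells of each library. They also carried RNA typical of the surrounding tissue. Summed chondrocyte markers reached 5010 CPM (UMIs of a gene in each 1000000 UMIs) in B lineage cells of control callus and 2333 in those of GC callus, and erythroid markers reached 8052 CPM in control and 2827 in GC trabecular bone. Summed neutrophil markers stood at 3329 CPM in control and 2927 CPM in GC trabecular bone. The profile of empty droplets was then taken off, or in GC callus, which lists no empty droplets, the profile of its cells. After this 4 instead of 3 members were at least 2-fold lower in B lineage cells of callus. Pax5 was the fourth, at a log2 ratio of -1.03, and the count in trabecular bone was 6 both ways. Without subtraction 4.31% of genes passed in callus and 36.3% in trabecular bone. No share is given with it, and the 2 callus profiles differ in kind, so the fourth member is not read further.

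In control trabecular bone most of the members were found almost wholly in B lineage cells. There, 96.7% of Vpreb1 UMIs in filtered cells, 96.9% of Igll1 UMIs, 97.2% of Rag1 UMIs and 98.2% of Pax5 UMIs lay in B lineage cells. Cd79b was the least restricted, at 89.1% (87.8 to 90.2, exact binomial 95% interval). Its next highest level among classes of 15 or more cells was in plasmacytoid dendritic cells, at 33.6 CPM (14.5 to 66.1). The plasma cells, 9 in number and so under that limit, held 47 Cd79b UMIs.

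In control callus the members were less confined to B lineage cells than in control trabecular bone. The shares were 37.4% for Igll1, 52.1% for Vpreb1, 53.5% for Vpreb3 and 69.2% for Rag1, and up to 92.7% for Ms4a1. Ebf1 was spread over more classes than the other members in callus. In control callus 23.9% of its UMIs lay in B lineage cells and 69.9% in stromal, skeletal or endothelial cells, and in GC callus the shares were 18.6% and 78.0%. Stromal cells held it at 705 CPM (569 to 865) in control and 539 CPM (450 to 641) in GC trabecular bone. In callus stromal cells it stood at 183 CPM (170 to 197) in control and 175 CPM (158 to 193) in GC.

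**Figure D1:**
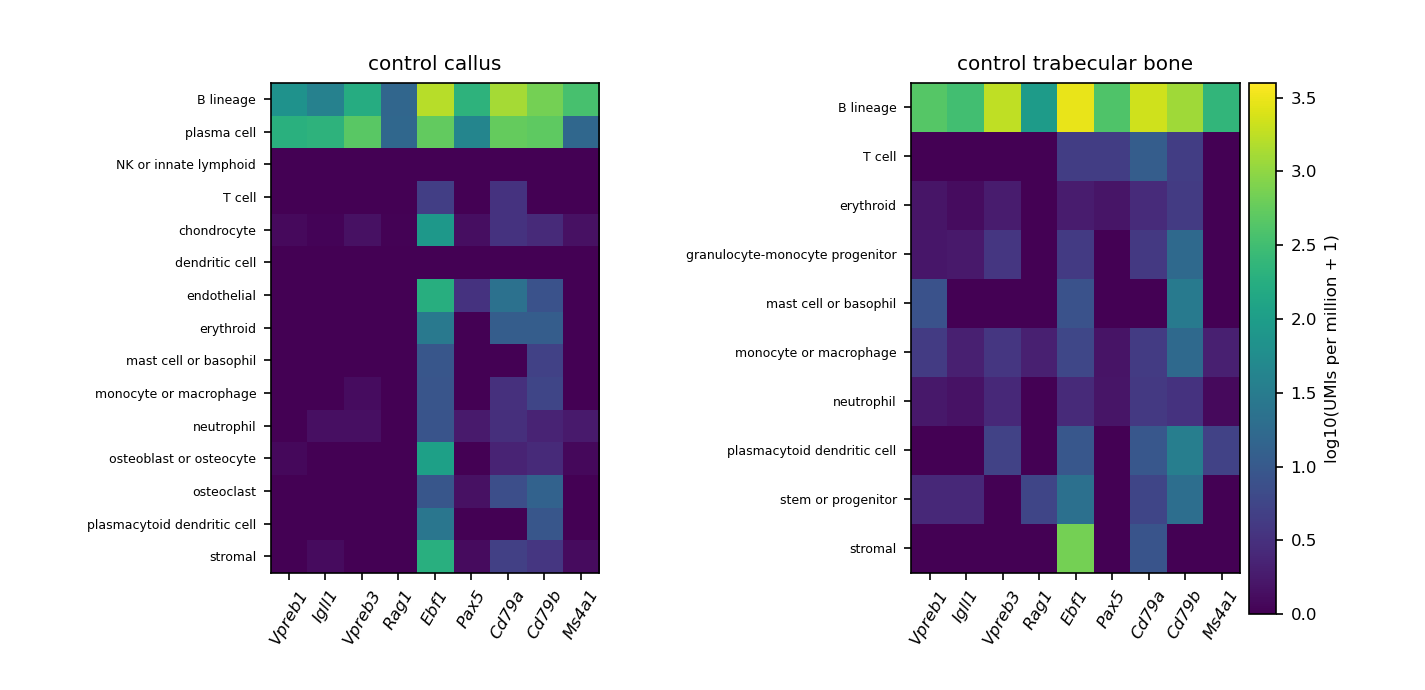
Level of the 9 genes (columns) in each cell class of 15 or more cells (rows) of control callus (left) and control trabecular bone (right), as the base-10 logarithm of CPM plus 1 (color scale). The B lineage rows are brightest for most genes, and Ebf1 is also bright in stromal cells. The callus plasma cell row holds Vpreb1 at 190 CPM and Igll1 at 211 CPM, above the callus B lineage row.

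B lineage cells of all 4 libraries were subclustered together, again without the members and without antibody light chain and variable genes, and each subcluster was staged by other markers. Early B-like cells carried markers such as Il7r, Lef1, Sox4 and Myb, and were divided into Dntt-high cells, which express the enzyme that adds bases at antibody gene joints, cycling cells with mitotic markers, and Dntt-low cells. Intermediate cells carried early markers together with at least as large a share of the mature ones, and mature B-like cells carried mature markers such as Ighd, Cd74 and class II genes. Thresholds for these names were set after the subclusters had been seen. The line between Dntt-low and intermediate cells was narrow. Dntt-low cells passed 8 of 13 early and 9 of 16 mature markers, and the callus intermediate subcluster passed 7 and 10. The stages were not spread evenly over the tissues: 570 of the 626 mature control cells came from callus, and 15 of 21 Dntt-high, 61 of 62 cycling and all 147 Dntt-low cells from trabecular bone. Levels by stage are therefore given within control trabecular bone, a choice made after the pooled levels had been seen, with callus values beside them. Set against the other B lineage subclusters, mature cells of trabecular bone led with hemoglobin and neutrophil genes, and the largest mature callus subcluster with cartilage genes such as Acan and Col9a3.

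Vpreb1 and Igll1 marked the earliest stage. Vpreb1 stood at 3133 CPM (2807 to 3486) in 15 Dntt-high cells, 485 CPM (442 to 531) in 61 cycling cells and 51.8 CPM (32.8 to 77.7) in 147 Dntt-low cells. No UMI was found in 36 intermediate or 56 mature cells, which allows 25.5 and 15.1 CPM. Each step from Dntt-high to Dntt-low exceeded counting error, at 6.46-fold (5.60 to 7.44) and 9.37-fold (6.17 to 14.9). The 6 Dntt-high cells of control callus held 2764 CPM (2205 to 3422).

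Igll1 followed the same order with a steeper end. It stood at 1692 CPM (1455 to 1956) in Dntt-high cells and 429 CPM (389 to 473) in cycling cells. A single UMI, 2.25 CPM (0.0570 to 12.5), was counted in Dntt-low cells, and none in intermediate or mature cells.

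Vpreb3 lasted longer than its relative. It stood at 3235 CPM (2904 to 3594) in Dntt-high cells, 1.15-fold (1.02 to 1.30) above Dntt-low cells, at 2810 CPM (2656 to 2970). Cycling cells had 1536 CPM (1459 to 1616), intermediate cells 1104 CPM (923 to 1311) and mature cells 201 CPM (143 to 273). The last step, 5.50-fold (3.83 to 8.05), was its largest. Mature cells of control callus held 68.8 CPM (54.4 to 85.9) and Dntt-high ones 1645 CPM (1221 to 2169).

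Rag1 had a high level on either side of the cycling cells. It stood at 317 CPM (267 to 374) in Dntt-low and 177 CPM (106 to 276) in Dntt-high cells, a 1.80-fold step (1.11 to 3.07). The 19 Dntt-high UMIs lay in 6 of 15 cells, and the interval does not cover that clustering. Cycling cells held 11.4 CPM (5.67 to 20.3), and intermediate and mature cells had no UMI. In control callus, by contrast, 45 intermediate cells held 11 Rag1 UMIs, 128 CPM (63.8 to 229). Rag2, its partner, stood at 74.4 CPM (32.1 to 147) in Dntt-high, 5.16 CPM (1.68 to 12.0) in cycling and 22.5 CPM (10.8 to 41.4) in Dntt-low cells of trabecular bone. Rag2 was itself among the early markers used for staging, so its levels are no independent measure.

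The transcription factors were present at every stage. Ebf1 was highest in Dntt-low cells, at 5680 CPM (5461 to 5906), followed by Dntt-high cells at 3867 CPM (3505 to 4257). Then intermediate cells, at 2412 CPM (2140 to 2710), mature cells, at 2224 CPM (2021 to 2441), and cycling cells, at 2013 CPM (1925 to 2104), followed, and neighbors in that order did not differ beyond counting error. Mature cells of control callus held less Ebf1, at 1561 CPM (1489 to 1635). Pax5 stood at 671 CPM (531 to 836) in intermediate and 626 CPM (554 to 704) in Dntt-low cells, a pair that did not differ beyond counting error. Mature cells held 402 CPM (318 to 500) of Pax5 in trabecular bone and 190 CPM (165 to 217) in control callus.

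Both receptor chains peaked around the Dntt-low and intermediate stages. Cd79a stood at 4578 CPM (4200 to 4981) in intermediate cells, 1.33-fold (1.20 to 1.47) above Dntt-low cells, at 3442 CPM (3272 to 3619), and at 2816 CPM (2588 to 3059) in mature cells. Cd79b stood at 2558 CPM (2411 to 2711) in Dntt-low and 2344 CPM (2076 to 2638) in intermediate cells, which did not differ beyond counting error. Its 3 lower stages lay close together, between 664 and 762 CPM. Mature callus cells held Cd79a at 1209 CPM (1146 to 1274) and Cd79b at 618 CPM (574 to 666).

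Ms4a1 was the latest of the 9 genes. A single UMI was counted in Dntt-high cells, and it stood at 7.23 CPM (2.91 to 14.9) in cycling and 236 CPM (193 to 286) in Dntt-low cells. It peaked in intermediate cells, at 1614 CPM (1392 to 1860), and stood at 617 CPM (513 to 737) in mature cells. In control callus it stood at 1209 CPM (987 to 1464) in intermediate and 298 CPM (267 to 332) in mature cells. In control trabecular bone 6 of the 9 members were highest in an early stage, and 7 with both control libraries together, where Pax5 changed places. Cd79b counts among the 6, but its Dntt-low over intermediate ratio was 1.09 (0.956 to 1.25), within counting error. That of Pax5 in the control libraries together was 1.10 (0.882 to 1.38), also within counting error. Most of the stages are early and no share of all genes is given, so these counts show no preference for early stages.

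**Figure D2:**
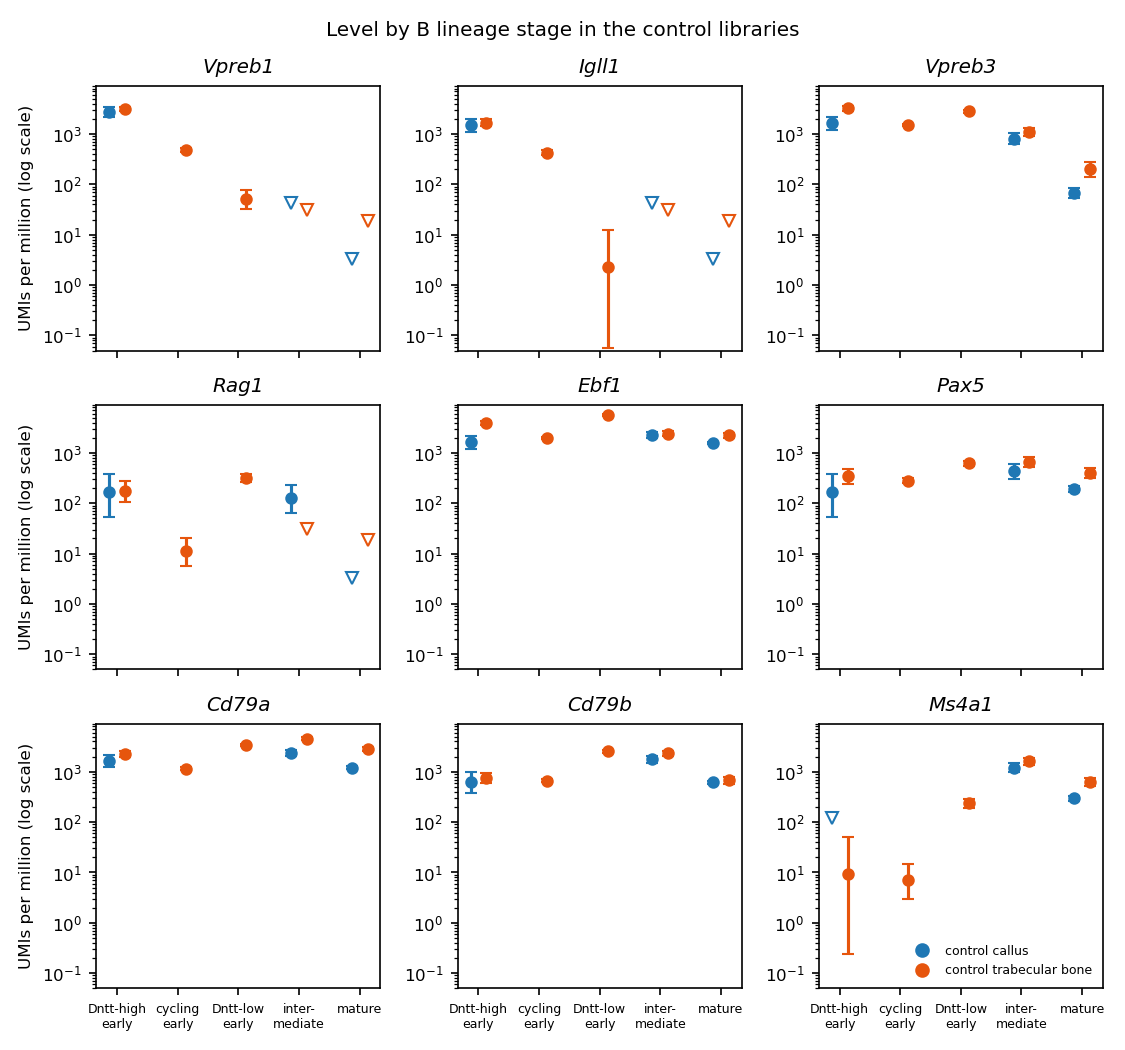
Level of each gene in CPM (log scale) at 5 B lineage stages of control callus (blue) and control trabecular bone (orange), with exact Poisson 95% intervals, for stages of at least 5 cells; an open triangle marks the upper bound where no UMI was counted. In trabecular bone Vpreb1 and Igll1 end before the intermediate stage, Rag1 dips in cycling cells, and Ms4a1 peaks at 1614 CPM in intermediate cells.

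For Vpreb1 and Rag1 the shares of cells holding a UMI followed the levels in the control libraries together. After each cell was thinned to 1000 UMIs, which left out 33 of 626 mature and 3 of 147 Dntt-low cells, Vpreb1 was detected in 90.5% (69.6 to 98.8) of Dntt-high, 24.2% (14.2 to 36.7) of cycling and 5.56% (2.43 to 10.7) of Dntt-low cells. Without thinning the shares were 100%, 53.2% and 9.52%, at median depths of 5866, 10762 and 2889 UMIs. Neutrophils of control trabecular bone, which should lack the gene, gave 0.0817% thinned and 0.442% unthinned at a median of 5911 UMIs. Rag1 was detected in 28.5% (21.3 to 36.6) of thinned Dntt-low cells and 50.3% unthinned, and in no neutrophil of that library. Cd79a did not follow its levels. It was detected in 74.2% of thinned cycling and 66.9% of thinned mature cells, at levels of 1153 and 1449 CPM.

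In single cells of control trabecular bone Vpreb1 and Igll1 were mostly found together. Of 315 B lineage cells, 61 held a Vpreb1 UMI and 48 an Igll1 UMI, and 45 held both. Rag1 was found in 88 cells, 16 of them with Vpreb1. Ms4a1 was found in 116 cells, 9 of them with Vpreb1 and 91 with Vpreb3. Vpreb3 was found in 279 of the 315 cells, so its overlap with Ms4a1 shows no pairing.

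Across 59 profiles of classes and stages, each library separate, the genes most like Vpreb1 were Igll1 (Pearson r = 0.961 of log2 levels), 1700027J07Rik (0.955), Vpreb2 (0.945), Drc7 (0.916) and Lgr5 (0.894). Genes most like Ms4a1 included Fcmr (0.972), Fcrl1 (0.962), Ighd (0.903) and Cd22 (0.899). Fcmr, Ighd and Cd22 had served to name the cells, and the profiles share libraries and depth, so these values describe the table only.

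Turning to treatment, the members were lower in GC trabecular bone whichever stage they mark. Over all barcodes of a library, Vpreb1 stood at 25.0 CPM (23.5 to 26.6) in control and 0.480 CPM (0.301 to 0.726) in GC, a 52.1-fold lower level (34.2 to 83.6). Vpreb3 stood at 95.6 and 2.25 CPM, 42.6-fold lower (35.0 to 52.3). Igll1 stood at 17.8 CPM in control and had 2 UMIs in GC, a ratio of 408 (112 to 3373). Rag1 had 206 UMIs in control, 5.00 CPM, and none in GC, at least 76.4-fold lower against a floor of 3 counts.

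The other members were lower in GC too, by 9.79-fold to 65.6-fold. Pax5 was 65.6-fold lower (39.5 to 118), from 21.4 to 0.327 CPM. Ebf1 was 33.0-fold lower (28.9 to 37.8), from 162 to 4.93 CPM. Cd79a was 13.4-fold lower (12.1 to 14.9), Cd79b 11.1-fold (9.83 to 12.5) and Ms4a1 9.79-fold (7.40 to 13.2). With 5 CPM added to each level, 8 of the 9 were at least 2-fold lower, against 0.540% of 12413 genes of at least 50 UMIs, and none was higher, against 0.435%. Rag1, at 5.00 CPM in control with no UMI in GC, lay just outside the 2-fold line, the largest ratio that addition allows it. With nothing added all 9 were lower, against 3.21% of genes. In pooled libraries fewer cells of a type and less RNA per cell cannot be told apart.

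Callus showed smaller and less even differences. Vpreb1 stood at 1.83 CPM (1.57 to 2.12) in control and 0.171 CPM (0.0853 to 0.306) in GC, 10.7-fold lower (5.83 to 21.8). Igll1 had 136 UMIs in control and none in GC, at least 30.5-fold lower. Vpreb3 was 3.52-fold lower (2.78 to 4.50), Pax5 2.61-fold (2.07 to 3.33), Cd79b 2.61-fold (2.32 to 2.93), Ms4a1 1.80-fold (1.52 to 2.13) and Cd79a 1.59-fold (1.47 to 1.72).

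Ebf1 was slightly higher in GC callus, at 119 CPM (116 to 122) against 103 CPM (101 to 105). Rag1 rested on 32 and 16 UMIs, and its interval of 0.716 to 2.62 for control over GC included 1. With 5 CPM added, none of the 8 members of at least 50 UMIs was 2-fold lower in callus, against 0.265% of 15466 genes. A gene under 5 CPM in control cannot pass 2-fold with that addition, even with no UMI in GC. Vpreb1, Igll1, Vpreb3 and Pax5 lay under it, at 1.83, 1.42, 4.59 and 3.69 CPM. For them that count could not show a difference. With nothing added, a choice made after that count was seen, 5 were lower against 2.20% of genes. The GC callus matrix listed called cells only, while the others listed all barcodes.

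**Figure D3:**
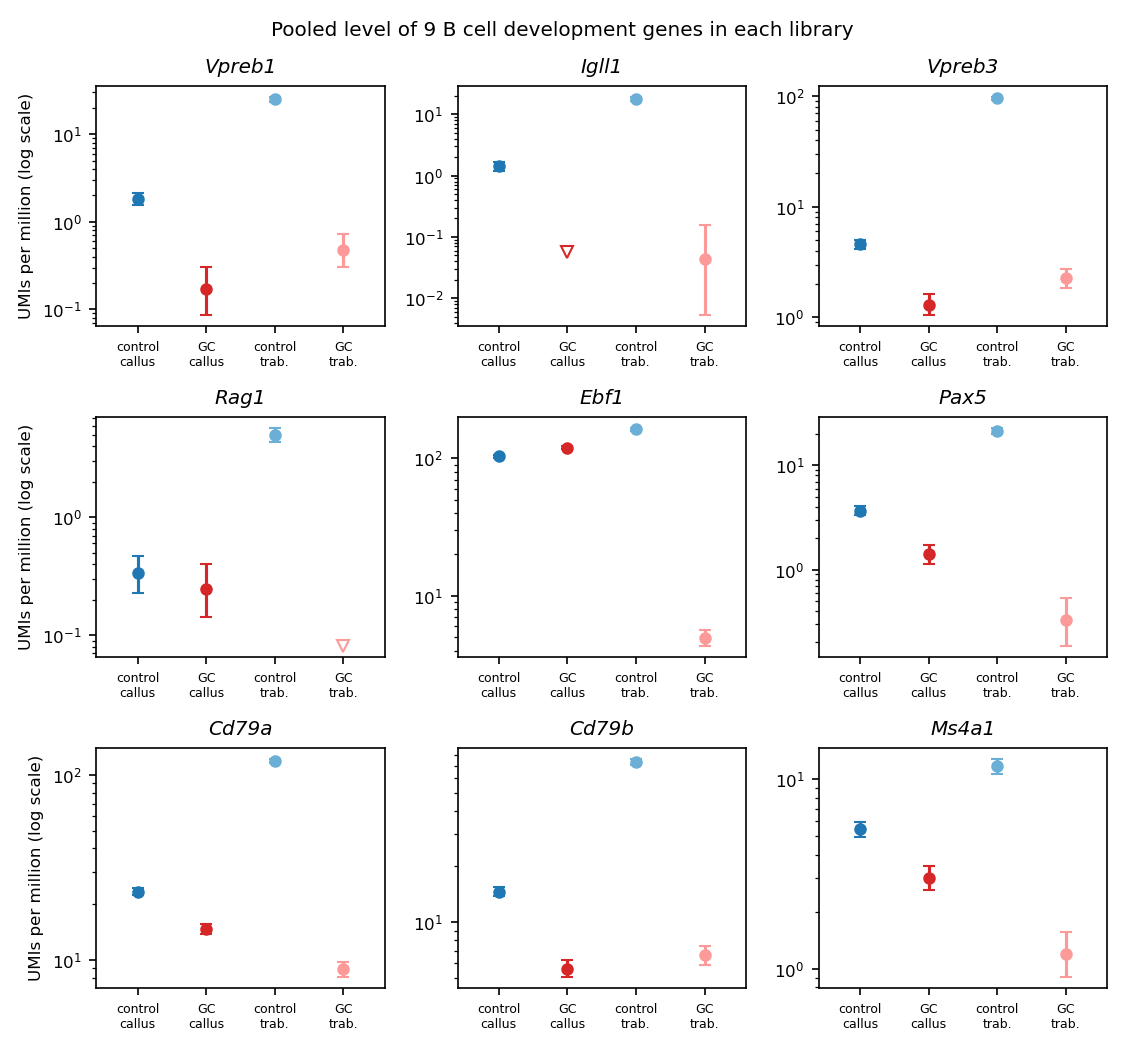
Level of each gene over all barcodes of a library in CPM (log scale), with exact Poisson 95% intervals; blue marks control, red marks GC, and an open triangle marks the upper bound where no UMI was counted. In trabecular bone every gene is lower in GC, from 9.79-fold for Ms4a1 upward, and in callus Ebf1 is not lower.

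The number of B lineage cells differed along with these levels. They made up 8.28% (7.42 to 9.20) of 3806 cells in control trabecular bone and 0.348% (0.199 to 0.564) of 4602 in GC, that is 315 and 16 cells. In callus they made up 9.28% (8.59 to 9.99) of control cells and 5.72% (5.18 to 6.29) of GC cells. T cells made up 1.23% of control and 3.63% of GC cells in trabecular bone, and 4.25% and 5.66% in callus. With a UMI cutoff alone instead of the test that rescues smaller cells, the B lineage share was 3.48% in control and 0.0724% in GC trabecular bone. In callus it was then 0.0734% in control and 5.67% in GC, values that are not under the same setting and give no direction. The GC callus matrix listed called cells only, so the cutoff could not be applied to it.

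Stage by stage, early B-like cells made up 70.8% (65.4 to 75.8) of B lineage cells in control trabecular bone, with 15 Dntt-high, 61 cycling and 147 Dntt-low cells. That share depends on the narrow line between Dntt-low and intermediate cells. GC trabecular bone had no early B-like cell among 16, which allows a share of up to 18.8%. All 16 were mature, against 56 in control. With each tissue subclustered alone, 6.25% of the 16, a single cell, and 69.2% of the control cells were early. In control callus 7 of 622 B lineage cells were early, 1.13% (0.454 to 2.30), and in GC callus 0 of 394, which allows 0.761%.

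The callus plasma cell cluster bore on this count. Its 31 control cells held 63 Vpreb1 UMIs in 5 cells and 70 Igll1 UMIs in 6 cells, while the 21 GC cells held none. After these values had been seen, the plasma cell clusters were subclustered together with the B lineage. Then 10 of the 31 cells were staged as cycling early B-like, and the early share of control callus became 2.53%. Because the members prompted that step, it is no independent measure of them, and the values given here keep the clusters apart.

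**Figure D4:**
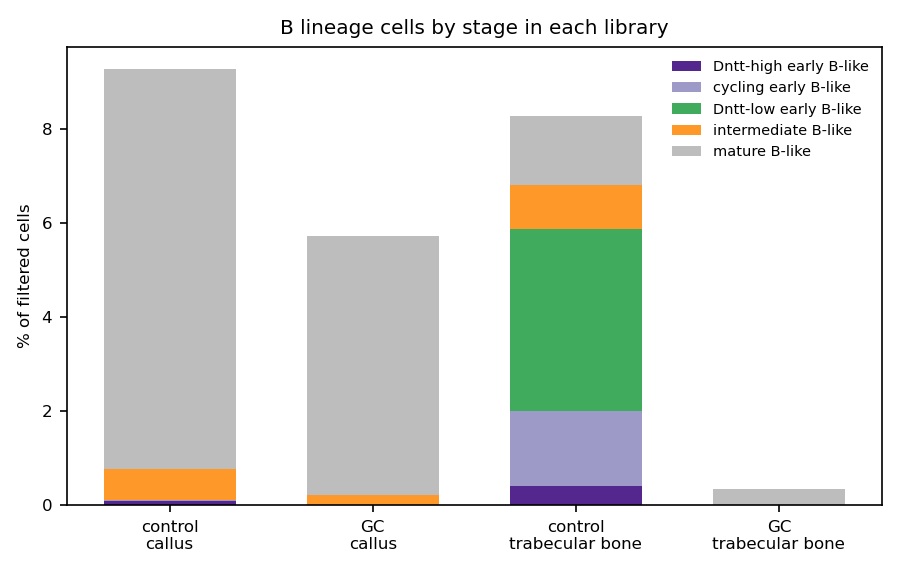
B lineage cells by stage (colors) as a percentage of all filtered cells (bar height) in each of the 4 libraries. Early stages fill most of the control trabecular bar, callus bars are mostly mature, and the GC trabecular bar reaches 0.348%.

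Within B lineage cells of trabecular bone the early genes were the lowest in GC. All 16 GC cells were mature B-like, while 70.8% of the control cells were early. The ratios of this paragraph therefore carry the difference in stages and are not levels within a stage. Vpreb1, Igll1 and Rag1 had no UMI in the 16 GC cells, against 452, 326 and 93.1 CPM in control, which puts them at least 7.51-fold, 5.42-fold and 1.55-fold lower. Vpreb3 was 12.6-fold lower (6.12 to 31.4) and Ebf1 and Cd79b each 2.28-fold. Cd79a stood at 2170 CPM (2103 to 2238) in control and 2667 CPM (2233 to 3160) in GC. Ms4a1 was higher in GC, at 822 CPM (590 to 1115) against 232 CPM (210 to 255), a log2 ratio of 1.80. That ratio was 0.97 as a mean over cells and 0.51 in cells thinned to 1000 UMIs, both under 2-fold, and Cd79a turned from 0.30 to -0.32 and -0.19. In all, with 5 CPM added, 6 of 9 members were at least 2-fold lower, against 36.3% of genes, and 1 was higher, against 6.60%. Rag1 counts among the 6 although its bound, 1.55-fold, lies under 2-fold.

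Mature cells of trabecular bone could not show the differences of Vpreb1, Igll1 and Rag1, because control mature cells held no UMI of them. Vpreb3, with 40 UMIs in control and 7 in GC, did not reach 50 UMIs. None of 5 members of at least 50 UMIs was 2-fold lower, against 10.8% of genes. Ebf1 stood at 2224 CPM (2021 to 2441) in control and 1343 CPM (1041 to 1706) in GC, and its ratio of 1.66 (1.28 to 2.17) excluded 1. The intervals for Pax5, Cd79a, Cd79b and Ms4a1 included 1, and only 56 and 16 cells bore on them.

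Within B lineage cells of callus, 3 of 7 members were at least 2-fold lower in GC, against 4.31% of genes. Stages differed between the groups, so these ratios are not levels within a stage. Early and intermediate cells were 7 and 45 of 622 in control, and none and 15 of 394 in GC. Vpreb1 stood at 67.7 CPM (54.1 to 83.8) in control, and its single UMI in GC gave a ratio of 46.2 (8.07 to 1846). The 85 control UMIs lay in only 7 of 622 cells, and the interval does not cover that clustering. Vpreb3 was 2.18-fold lower (1.61 to 3.01), from 170 to 77.7 CPM, and Cd79b 2.68-fold lower (2.28 to 3.17), from 704 to 262 CPM. Igll1, with 46 UMIs in 6 control cells and none in GC, did not reach 50 UMIs and was at least 8.33-fold lower. Rag1 had 18 and 10 UMIs, and the GC ones came from 2 cells. All of those GC UMIs lay in intermediate B-like cells, where Rag1 stood at 128 CPM (63.8 to 229) in 45 control cells and 332 CPM (159 to 610) in 15 GC cells, and the interval of the ratio, 0.149 to 1.01 for control over GC, included 1.

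Among mature callus cells Cd79b differed most of the 6 members measured. It had 618 CPM (574 to 666) in 570 control cells and 201 CPM (168 to 238) in 379 GC cells, 3.08-fold lower (2.55 to 3.74). Its partner Cd79a differed less, at 1209 and 937 CPM, 1.29-fold (1.17 to 1.42). Pax5 was 2.06-fold lower (1.54 to 2.79) and Ms4a1 1.48-fold (1.21 to 1.83), while Ebf1 had a control over GC ratio of 0.917 (0.850 to 0.989). Vpreb3 stood at 68.8 and 46.0 CPM, and the interval of its control over GC ratio, 0.970 to 2.36, included 1. In all 2 of 6 members, Cd79b and Pax5, passed 2-fold, against 4.66% of genes, and Pax5 did so narrowly. In intermediate callus cells, 45 in control and 15 in GC, the intervals of these members all included 1. There the control over GC ratio was 1.11 (0.797 to 1.57) for Cd79b and 1.08 (0.551 to 2.28) for Pax5.

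Mature callus cells of the 2 groups fell into different subclusters. One held 407 control and 35 GC cells, another 9 and 268, and the remaining callus ones 95 and 26, and 55 and 49. The one of 9 and 268 cells passed 8 of 14 B lineage and 9 of 16 mature markers, the fewest of the mature subclusters. The one of 407 and 35 cells passed 12 and 15. Bone and cartilage genes such as Col1a1, Ibsp and Acan were among the leading genes of the subcluster of 9 and 268 cells. In the 3 subclusters with at least 20 cells of each library, chosen after the values were seen, Cd79b was 2.81-fold lower (2.08 to 3.88), Vpreb3 2.39-fold (1.05 to 6.72) and Pax5 1.75-fold (1.13 to 2.82). In cells thinned to 1000 UMIs Cd79b was 3.17-fold lower (2.40 to 4.24) and Vpreb3 2.88-fold (1.32 to 7.17).

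**Figure D5:**
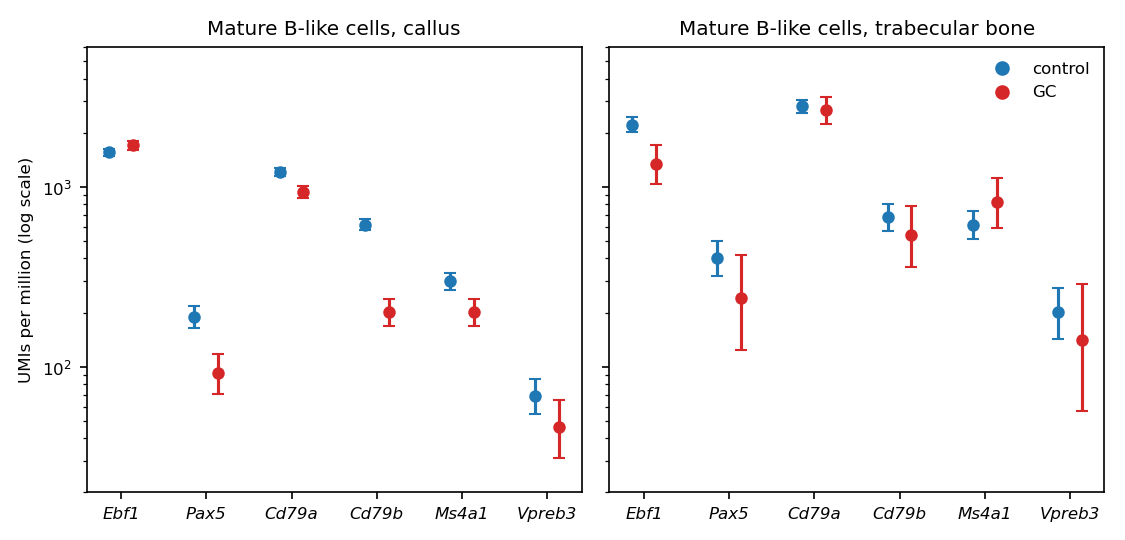
Level of 6 genes in mature B-like cells of callus (left) and trabecular bone (right), in CPM (log scale), control in blue and GC in red, with exact Poisson 95% intervals. In callus the Cd79b intervals are farthest apart, at 618 and 201 CPM, and in trabecular bone the Pax5, Cd79a, Cd79b, Ms4a1 and Vpreb3 intervals overlap.

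Plasma cells carried part of what was left in GC trabecular bone. They held 87 of 98 Vpreb3 UMIs and 228 of 383 Cd79a UMIs in filtered cells, from 15 cells. Ighm, the heavy chain of the first antibody class, was near level over all barcodes of trabecular bone, at 276 CPM in control and 244 CPM in GC. Its B lineage cells held 6902 Ighm UMIs in control and 130 in GC. Plasma cells of all 4 libraries together held 11036 Ighm UMIs, and those of the control libraries 2276.

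Other genes of the pathway were read from 7 lists. Over all barcodes of trabecular bone, where 0.540% of all genes were at least 2-fold lower in GC, 5 of 16 B lineage transcription factors were, with Spib lowest at a log2 ratio of -2.59 and Spi1 highest at 0.08. Of 10 receptor and coreceptor genes 5 were lower, with Cd72 lowest at -1.93 and Igkc highest at 0.62. Of 11 mature surface and homing genes 3 were lower, with Fcrla lowest at -2.34, and of 10 receptor signaling genes 2 (Blnk -2.11, Lyn 0.10). None of 8 recombination and repair genes passed, with Dntt at -0.96 and Xrcc5 at 0.01. Dntt had 116 UMIs in GC, and 107 were counted in stem or progenitor cells. B lineage cells held 186 Dntt UMIs in control and none in GC. None of 7 early cytokine and niche receptors passed either, and Il7r, which T cells also express, was at 0.58. The 3 niche ligands measured ranged from -0.12 for Flt3l to 0.03 for Cxcl12.

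In callus the same lists moved little over all barcodes. Only receptor and coreceptor genes passed, 2 of 11 against 0.265% of all genes, with Iglc3 at -2.98 and Iglc1 at 0.91. Cxcl12, a stromal ligand that holds B cell precursors in marrow, was at 0.94, the highest of 5 niche ligands, and Flt3l was lowest at 0.07. Medians were -0.12 for transcription factors, 0.05 for recombination, 0.14 for early receptors, -0.25 for receptor and coreceptor genes, 0.07 for signaling, -0.19 for mature surface genes and 0.24 for niche ligands, beside 0.02 over all genes. In trabecular bone the medians were -0.68, -0.13, -0.12, -0.87, -0.29, -0.35 and -0.04 in the same order, beside -0.05 over all genes.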

How the data were processed

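Single-cell RNA-seq (10x Genomics) of callus and trabecular bone was analysed, 1 library in each of 4 groups. The authors deposited UMI counts per gene and barcode, not normalized. The submitters' processing notes name Cell Ranger 5.0.1, Seurat 3.2.0 and mm10, while the file headers name Cell Ranger 4. Library totals were 41239842 to 95852254 UMIs. Cells in the 3 full matrices were called by a UMI cutoff and a Monte Carlo test (10000 simulations, adjusted p at most 0.01). Cells of under 200 genes or over 10% mitochondrial UMIs were removed, as were the highest doublet scores (0.8% per 1000 cells).

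Each tissue was clustered (Leiden, leidenalg 0.10.2, resolution 1, 30 components) and named from markers at least 2-fold over other clusters in 10% of cells, with at least 3 required. Naming thresholds and stage rules were adjusted after the clusters were seen. One relaxed rule let another class lead a cluster's 10 top genes by 1 marker, and no B lineage or plasma cell cluster used that allowance. Subclusters were checked on their top genes against other classes. Ratios are of CPM with 5 CPM added for counts of genes, for genes of at least 50 UMIs, and folds in the text use no addition. Intervals are exact (Poisson, Clopper-Pearson or conditional, 95%), and the ratio step was tested on simulated data. All 9 members were named, with the 5 genes most like Vpreb1 and Ms4a1, the ends of each list, and Rag2, Dntt, Il7r, Ighm and Ighd where they bear on a result. Some genes that this rule names are not reported here. Members and lists were chosen with earlier results of these data known.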

Additional observations from a re-analysis of the deposited data

Results flagged for a closer look

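Ebf1 moved in opposite directions in the 2 tissues over all barcodes. Its ratio of GC over control was 1.16 (1.13 to 1.20) in callus and 0.0303 (0.0265 to 0.0347) in trabecular bone, and the difference was not tested, with 1 library in each group. In callus 69.9% of its UMIs in control and 78.0% in GC lay in stromal, skeletal or endothelial cells, and within B lineage cells of callus it stood at 1615 CPM in control and 1745 CPM in GC.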

How the results depend on the processing

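No paired analysis was possible because the groups share only replicate number 1, and no replicate could be left out of groups of 1 library. In pooled callus 4 members were at least 2-fold lower with 1 CPM added and 5 with none, instead of 0. Members under 5 CPM in control could not pass with 5 CPM added. The share of all genes rose too, from 0.265% with 5 CPM added to 2.20% with none, and it is not given for 1 CPM. Taking cells with UMIs of at least 2 B lineage markers gave B lineage shares of 13.8% and 7.11% in control and GC callus and 14.8% and 3.54% in trabecular bone. That choice left 1 member lower within callus B lineage cells, with no share of all genes given. Cd79b went there from a log2 ratio of -1.41 to -0.65, and Ms4a1 in trabecular bone turned to -1.80. With at most 5% mitochondrial UMIs the shares were 6.50%, 3.93% and 5.69% in control callus, GC callus and control trabecular bone. A UMI cutoff alone gave 3.48% in control and 0.0724% in GC trabecular bone. In callus the cutoff, 7534 UMIs, applied to control alone, where B lineage cells had a median of 1918 UMIs. The shares there, 0.0734% in control and 5.67% in GC, are thus not under the same setting and give no direction. Early shares by marker UMIs of single cells were 2.73%, 1.27% and 45.4% in control callus, GC callus and control trabecular bone. The early share of control callus was 0 with each tissue subclustered alone, where that of GC trabecular bone was 6.25%, and 2.53% with plasma cell clusters included. The cause of these shifts was not tested. The other 74 values of this kind stayed within their interval or within 1.5 times the count. Among values of single genes 193 were labeled unchanged, 52 moved and 1, that of Ms4a1, reversed. The settings with no CPM added, stages in control trabecular bone alone, shared subclusters, thinned mature cells and joint plasma subclustering were chosen after seeing the data. Cell number, 16 in GC trabecular bone, limits the B lineage levels there.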
